A study of Mus musculus with 14 samples.

Results

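The 10 immediate early genes described here, chosen by name, were followed through mouse brain RNA after haemorrhage and acupuncture: Fos, Fosb, Junb, Egr1, Egr2, Egr4, Arc, Npas4, Nr4a1 and Ier2. They are 10 of the 31507 genes in the deposited expression table, and all 10 were among the 13666 genes tested. The acupuncture group were mice with an intracerebral haemorrhage (ICH) that were needled at the GV20 point on 7 days in a row. The ICH group had a haemorrhage made with autologous blood, and the sham group had a sham operation. The material was labelled as brain tissue, and its strain, age, sampled region and time of collection are not known here. The series holds 14 libraries: 7 input libraries of poly(A) RNA (2 acupuncture, 2 ICH and 3 sham) and 7 libraries of the same groups pulled down with an antibody against N6-methyladenosine (m6A). Nothing in the labels ties replicates to separate animals, and p-values therefore measure the spread between these samples, which may be technical.

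Immediate early genes are transcribed within minutes of a stimulus without new protein synthesis. In neurons, calcium entry and growth factor signalling activate the transcription factors CREB and SRF, which bind the genes' promoters. The resulting RNA is short-lived, and the genes are widely used as markers of recent neuronal activity. Fos, Fosb and Junb encode leucine zipper proteins that pair to form the transcription factor AP-1, and Egr1, Egr2 and Egr4 encode zinc finger factors. Npas4 is a factor induced mainly by calcium in neurons, Nr4a1 is an orphan nuclear receptor, Arc acts at synapses and Ier2 is a small nuclear protein. m6A is a mark on adenosines of mRNA that is enriched near stop codons and in 3′ untranslated regions (3′UTR) and that is known to affect RNA decay and translation.

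Promoter stretches of these genes are shown because the genes moved together across libraries. They were cut from RefSeq promoter sequences (GRCm38.p6, 250 bases before to 50 after each start), in which Egr2, Egr4, Fos, Fosb, Junb, Npas4 and Nr4a1 were matched. Arc, Egr1 and Ier2 are named only. Capitals mark the core of the cAMP response element bound by CREB (TGACG, or CGTCA when read on the other strand), the CArG box of SRF in Egr2 (CCATATATGG) and the EGR site in Fosb and Nr4a1 (GCGGGGGCG, or CGCCCCCGC on the other strand). Each stretch is written 5′ to 3′ on the gene's strand. For Egr2, which has 5 starts, the stretch was taken from a start with the most cores.
Fos: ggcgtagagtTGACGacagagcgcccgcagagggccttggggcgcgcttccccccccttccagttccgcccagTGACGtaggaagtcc
Fosb: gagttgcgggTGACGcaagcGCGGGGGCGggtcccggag
Junb: ttcctgacagTGACGcgagccgcct
Egr2: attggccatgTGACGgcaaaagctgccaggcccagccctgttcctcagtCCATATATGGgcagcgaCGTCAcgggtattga
Egr4: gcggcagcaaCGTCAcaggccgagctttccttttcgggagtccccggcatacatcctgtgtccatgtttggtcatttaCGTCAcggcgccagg
Npas4: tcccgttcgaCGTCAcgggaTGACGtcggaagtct
Nr4a1: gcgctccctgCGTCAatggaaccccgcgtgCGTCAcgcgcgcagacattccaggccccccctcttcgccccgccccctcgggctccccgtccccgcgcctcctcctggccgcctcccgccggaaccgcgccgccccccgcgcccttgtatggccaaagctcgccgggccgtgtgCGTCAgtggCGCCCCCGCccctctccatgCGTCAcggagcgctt

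The cAMP response element core was present on either strand in all 7 matched genes, and in 23.0% of all 27025 genes with a promoter in the table. Egr2 has 5 starts in that table, and by promoter the count was 9 of 11, against 20.8% of all 32851 promoters. The promoters without the core were all starts of Egr2. The full palindrome TGACGTCA, which contains the core, was in 0 of the 11 promoters and in 1.79% of all promoters. Within these windows the CArG box was found in Egr2 alone, in 4 of the 11 promoters, against 1.63% of all promoters. Sites outside the windows were not searched, so a gene without a match here may hold one farther away. The EGR site was found in Fosb and Nr4a1, in 2 of the 11 promoters, against 2.91% of all promoters. The AP-1 site TGANTCA was in none of the 11 promoters, and in 7.81% of all promoters. The Fos stretch spans chr12:85473751-85473838 on the plus strand, the Egr2 stretch chr10:67537748-67537828 on the plus strand and the Egr4 stretch chr6:85513684-85513776 on the minus strand. The stretches of Fosb (chr7:19310077-19310115), Junb (chr8:84978840-84978864) and Npas4 (chr19:4990126-4990160) lie on the minus strand, and that of Nr4a1 (chr15:101266603-101266820) on the plus strand. A match of letters is no evidence of binding in these samples.

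All libraries carried brain markers. Snap25, a synaptic protein of neurons, ran from 217 to 439 FPKM (fragments per kilobase of transcript, scaled to library size), and Slc17a7, the glutamate transporter of cortical excitatory neurons, from 132 to 190 FPKM. Depth per library is unknown, because FPKM gives no read counts. ICH replicate 2 was less like its own group than other replicates were. Across the tested genes on log2(FPKM + 1), its correlation with ICH replicate 1 was 0.942 (genes are not independent replicates). The acupuncture replicates were at 0.976 and the sham replicates at 0.98 to 0.99. With the other 6 libraries ICH replicate 2 ran from 0.91 to 0.94, which overlaps the 0.92 to 0.99 of all other pairs. Acupuncture replicate 2 lacked choroid plexus RNA, with 1.13 FPKM of the marker Ttr (transthyretin) against 326 to 473 FPKM in the other 6 libraries.

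Among the AP-1 genes, Fos was at 5.48 and 12.016 FPKM in acupuncture, 3.53 and 9.96 in ICH, and 12.020, 24.9 and 15.8 in sham. Both ICH values lay below every sham value, and so did both acupuncture values, though acupuncture replicate 2 and sham replicate 1 were all but equal. Fosb was the lowest of the 3, with 0.933 and 2.95 FPKM in acupuncture, 1.05 and 1.69 in ICH, and 1.63, 3.50 and 2.28 in sham, and all its groups overlapped. Junb had 23.2 and 29.8 FPKM in acupuncture, 16.7 and 17.1 in ICH, and 26.6, 49.2 and 30.6 in sham. It was the gene of the 10 with the closest ICH replicates, and the one in which acupuncture and ICH did not overlap.

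Of the EGR genes, Egr1 was the most abundant per length, with 24.9 and 44.9 FPKM in acupuncture, 15.7 and 65.5 in ICH, and 45.5, 70.6 and 54.2 in sham. ICH replicate 1 lay far below the sham range and ICH replicate 2 inside it, and both acupuncture libraries lay below it. Egr2, a factor best known for its part in hindbrain patterning and myelination, had 0.520 and 1.97 FPKM in acupuncture, 0.203 and 1.72 in ICH, and 3.59, 6.11 and 4.60 in sham. Egr4 had 4.44 and 6.40 FPKM in acupuncture, 2.85 and 4.73 in ICH, and 8.99, 15.8 and 12.8 in sham. Egr2 and Egr4 shared one pattern: every library with a haemorrhage, acupuncture or not, was below every sham library. Their sham means were 4.77 ± 1.27 and 12.5 ± 3.42 FPKM (SD, n = 3).

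Arc, the synaptic gene, had 18.9 and 45.0 FPKM in acupuncture, 10.1 and 35.2 in ICH, and 40.6, 87.7 and 51.1 in sham. Npas4 had 1.53 and 7.10 FPKM in acupuncture, 1.05 and 5.60 in ICH, and 6.30, 11.9 and 6.72 in sham. For both genes ICH lay below sham without overlap, while the higher acupuncture library reached into the sham range. Nr4a1 was at 8.89 and 21.5 FPKM in acupuncture, 6.70 and 17.2 in ICH, and 25.0, 46.4 and 32.1 in sham, with both haemorrhage groups under sham. Ier2 was at 3.28 and 6.26 FPKM in acupuncture, 2.89 and 4.07 in ICH, and 3.36, 6.77 and 4.95 in sham, and its groups overlapped throughout.

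**Figure D1:**
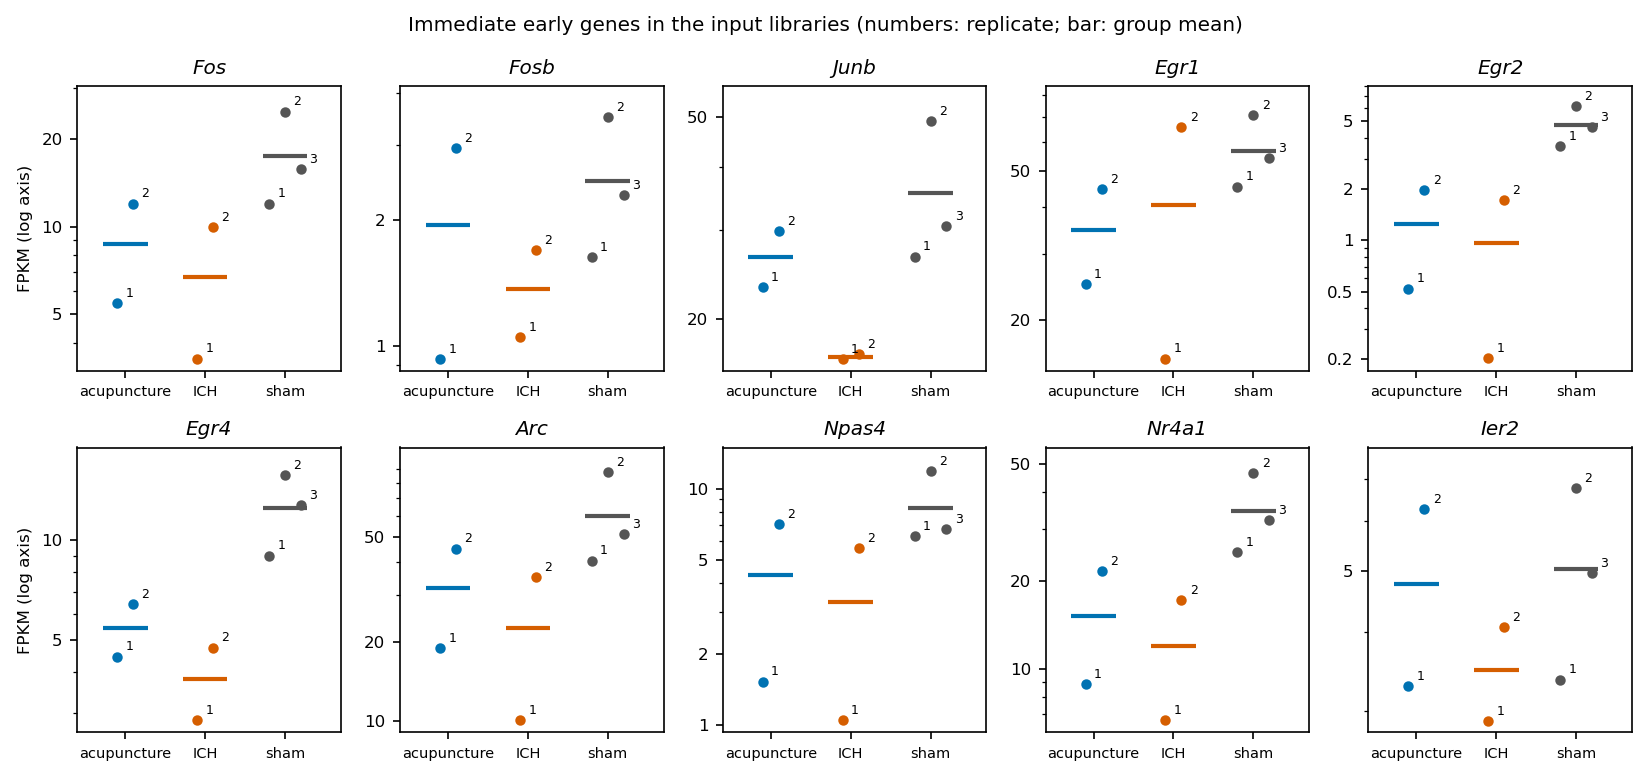
FPKM (log axis) of each immediate early gene in the input libraries of acupuncture (n = 2), ICH (n = 2) and sham (n = 3); numbers are replicates and bars are group means. Egr2, Egr4, Fos and Nr4a1 are below every sham library in all 4 libraries with a haemorrhage, and replicate 2 is the higher library in every group of every gene.

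In ICH against sham, all 10 genes had a negative log2 fold change, with a median of -1.31 beside -0.01 over all tested genes. Egr4 was the 1 gene that fell, by 1.50 on the log2(FPKM + 1) scale (SE 0.27, limma with Benjamini-Hochberg adjustment over all tested genes, adjusted p = 0.0231). Calls of lower genes were rare in this comparison, at 0.724% of tested genes, and 4.95% were called higher, none of these 10. At an unadjusted limma p under 0.05 stood 6 of the 10, all lower, against 21.5% of tested genes in either direction. The groups did not overlap, with ICH lower, in 7 of the 10, against 18.8% of tested genes. The pseudocount of 1 understates the change of low genes such as Egr2.

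The remaining genes did not pass the adjusted threshold in ICH against sham. Egr2 was at -1.65 (SE 0.42, limma adjusted p = 0.0766) and Junb at -0.98 (SE 0.25, limma adjusted p = 0.0815). Nr4a1 was at -1.54, Fos at -1.34, Arc at -1.52 and Npas4 at -1.29, with limma adjusted p between 0.136 and 0.282. Fosb at -0.53, Egr1 at -0.77 and Ier2 at -0.40 were the 3 genes whose groups overlapped. Egr4 no longer passed without sham replicate 2 (limma adjusted p = 0.0718) or sham replicate 3 (0.0865), or without the filter on low values (0.0779). Without ICH replicate 1 the median of the 10 was -0.69, and Egr1 turned to 0.23, not called.

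Acupuncture against sham gave the same direction for all 10 genes, with a median of -0.94 beside 0.04 over all tested genes. This comparison shares its sham libraries with the one before. Egr4 fell by 1.06 (SE 0.27, limma adjusted p = 0.0497, close to the threshold). Called lower were 3.22% of tested genes, and called higher 8.47%, with none of the 10 among them. Egr2 was at -1.42 (SE 0.42, limma adjusted p = 0.0782), and Nr4a1 at -1.20 (SE 0.48, limma adjusted p = 0.174). Fos at -0.96, Arc at -0.93, Npas4 at -0.99 and Egr1 at -0.72 were not called. Junb at -0.37, Fosb at -0.29 and Ier2 at -0.07 were nearest to sham.

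Egr1, Egr2, Egr4, Fos and Nr4a1 were the 5 genes whose acupuncture libraries all lay below sham, against 23.4% of tested genes. An unadjusted limma p under 0.05 was found for 3 of the 10, all lower, and for 25.5% of tested genes in either direction. By this count of both directions the 10 did not stand out. The share of tested genes that were lower at this p was not computed. The Egr4 call was lost under 9 of 16 alternatives, with limma adjusted p running from 0.0175 to 0.276 over all of them. Among these 9 were the fits that left out sham replicate 2, sham replicate 3 or either acupuncture library. Without acupuncture replicate 1 the median of the 10 was -0.32, and Fosb and Ier2 turned positive.

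With all 4 haemorrhage libraries set against sham, Egr2 fell by 1.53 (SE 0.35, limma adjusted p = 0.0356) and Egr4 by 1.28 (SE 0.23, limma adjusted p = 0.0132). All 10 genes were negative, with a median of -1.14 beside 0.00 over all tested genes. Of tested genes 2.56% were called lower and 8.06% higher. Both haemorrhage groups lay under sham without overlap in Fos, Egr2, Egr4 and Nr4a1, 4 of the 10, against 9.18% of tested genes. An unadjusted limma p under 0.05 was found for 6 of the 10, all lower, against 24% of tested genes in either direction. Both calls were lost when sham replicate 2, sham replicate 3 or acupuncture replicate 1 was left out, and the Egr2 call also when sham replicate 1 was.

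Acupuncture against ICH called none of the 10 (limma with Benjamini-Hochberg adjustment), and only 0.0366% of tested genes were called higher and 0% lower. The number at an unadjusted p under 0.05 was also 0, against 20.2% of tested genes. All 10 log2 fold changes were positive, from 0.05 for Egr1 to 0.61 for Junb, with a median of 0.33 beside 0.05 over all tested genes. Junb had an SE of 0.28 and a limma adjusted p of 0.262, and was the 1 gene in which acupuncture lay above ICH without overlap, against 28.8% of tested genes. Arc at 0.59 (SE 0.64), Egr4 at 0.43 (SE 0.30) and Fos at 0.38 (SE 0.52) had standard errors that were large beside the difference. By mean FPKM, acupuncture was above ICH in 9 of the 10, and Egr1 went the other way, with 34.9 ± 14.1 in acupuncture and 40.6 ± 35.2 in ICH (SD, n = 2 each).

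The positive signs rested on single libraries. Without ICH replicate 1, 4 of the 10 were positive and the median was -0.26. Without acupuncture replicate 2, 2 of the 10 were positive and the median was -0.19. Without ICH replicate 2 the median was 0.89, and without acupuncture replicate 1 it was 0.77, with all 10 positive in both cases and none called. Junb and Egr4 kept a positive sign with every library left out in turn.

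**Figure D2:**
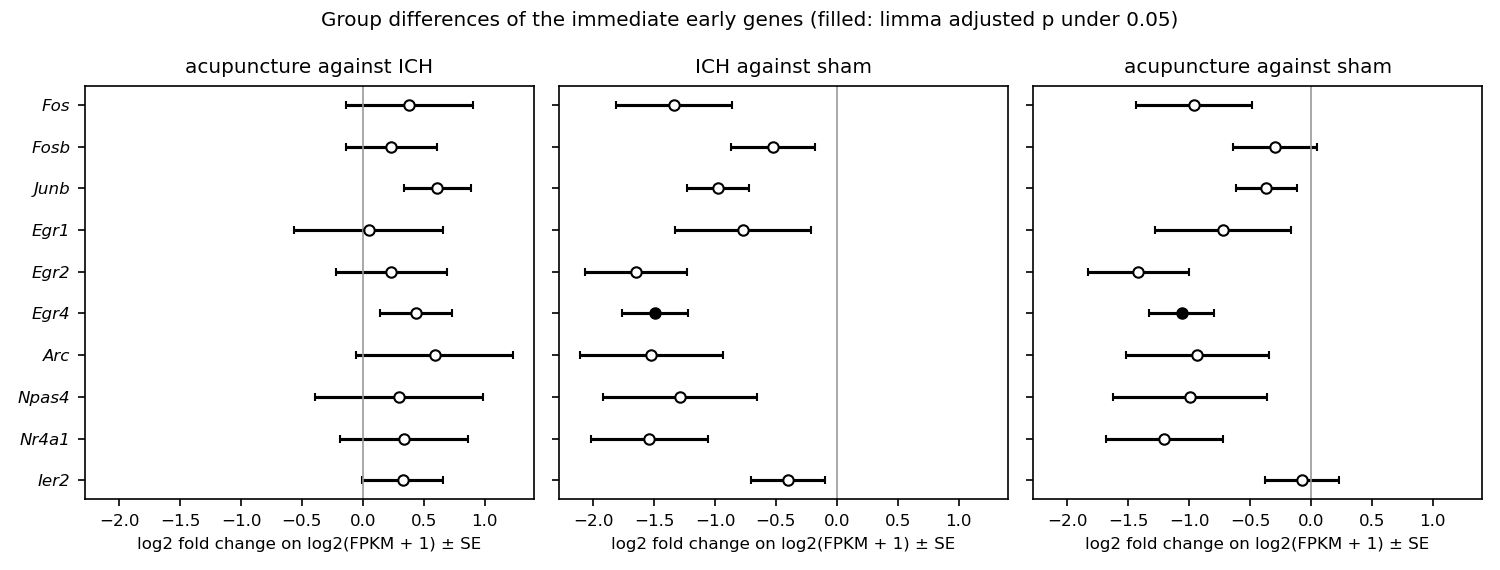
Log2 fold change on log2(FPKM + 1), with its standard error from limma, of each gene in the 3 pairs of groups; filled points passed an adjusted p under 0.05. Egr4 is the filled point at -1.50 for ICH against sham and at -1.06 for acupuncture against sham, and no point is filled in acupuncture against ICH.

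The 10 genes varied together between replicates of 1 group. In all 10, sham replicate 1 was below 3 and 3 below 2, an order that 15.8% of tested genes had. In all 10, replicate 1 was also below replicate 2 in ICH (47.2% of tested genes) and in acupuncture (50.1%), and 4.09% of tested genes had the 3 orders together. Sham replicate 2 was the highest library for every gene, and ICH replicate 1 the lowest for 9, with acupuncture replicate 1 lowest for Fosb. Replicate numbers have no order of their own.

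The size of this spread beside the group differences depended on the gene and the comparison. The ratio of mean FPKM in ICH to sham ran from 0.202 for Egr2 to 0.716 for Egr1. That of acupuncture to ICH ran from 0.859 for Egr1 to 1.57 for Junb. Egr4 was at 0.302 in ICH over sham, with replicate ratios of 1.76 in sham, 1.66 in ICH and 1.44 in acupuncture. Sham replicate 2 over sham replicate 1 ran from 1.55 for Egr1 to 2.16 for Arc, and all 10 were at 1.5 or more, against 3.18% of tested genes. Acupuncture replicate 2 over replicate 1 ran from 1.29 for Junb to 4.64 for Npas4, with 8 of 10 at 1.5 or more, against 4.24% of tested genes. ICH replicate 2 over replicate 1 ran from 1.02 for Junb to 8.49 for Egr2, with 8 of 10 at 1.5 or more, against 10.3% of tested genes. The summed FPKM of the 10 was 92.1 and 178 in acupuncture, 60.8 and 163 in ICH, and 174, 323 and 215 in sham. Acupuncture replicate 2 thus reached the level of sham replicate 1.

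**Figure D3:**
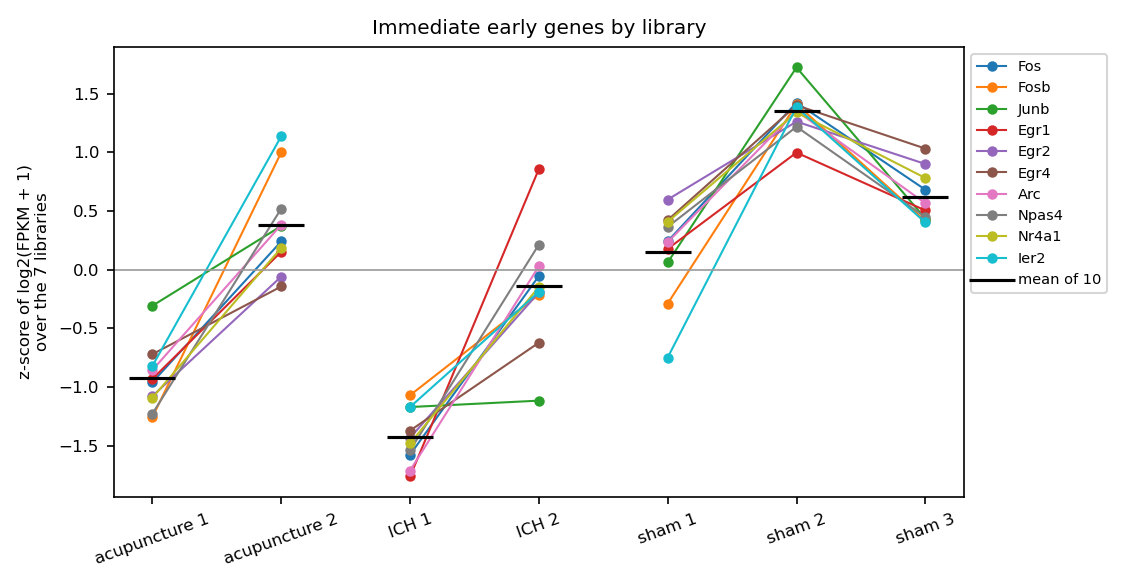
Z-score of log2(FPKM + 1) of each gene over the 7 input libraries, joined by lines within a group, with black bars for the mean of the 10. The mean runs from -1.43 in ICH replicate 1 to 1.35 in sham replicate 2, and every gene has the same order of libraries within each group.

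Other cell types moved with the groups. The 10 markers of striatal neurons summed to 205 and 155 FPKM in acupuncture, 253 and 209 in ICH, and 503, 464 and 483 in sham. In ICH against sham 7 of the 10 striatal markers fell, and in acupuncture against sham 9 (limma adjusted p under 0.05). The dopamine receptor gene Drd1 was at 5.57 and 3.88 FPKM in acupuncture, 7.90 and 6.31 in ICH, and 15.2, 13.6 and 14.0 in sham. The 8 cortical excitatory markers ran from 1013 to 1248 FPKM in acupuncture, 1126 to 1284 in ICH and 956 to 1314 in sham, and none was called. Fewer cells of a type and less RNA per cell cannot be told apart in bulk tissue.

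The 6 thalamic markers summed to 15.0 and 62.7 FPKM in acupuncture, 25.6 and 27.7 in ICH, and 59.6, 39.0 and 69.0 in sham, with 3 called lower in acupuncture against sham. Most of the higher acupuncture sum was Calb2 alone, at 6.42 and 54.8 FPKM in the acupuncture libraries. Slc17a6 was at 3.29 and 2.63 FPKM in acupuncture, 6.39 and 9.45 in ICH, and 14.5, 8.02 and 15.4 in sham. Shox2 was near 0 in acupuncture, at 0.0663 and 0.0221 FPKM, against 1.38 and 2.00 in ICH and 3.79, 2.57 and 4.80 in sham. The 6 reactive astrocyte markers summed to 707 to 869 FPKM in acupuncture and 579 to 631 in ICH, against 34.2 to 40.1 in sham. The 5 erythroid genes summed to 232 and 319 FPKM in acupuncture, 80.4 and 181 in ICH, and 187, 331 and 380 in sham. Like the immediate early genes they were lowest in ICH replicate 1 and lower in replicate 1 than in replicate 2 of each group, but their highest library was sham replicate 3.

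Of the 6 oligodendrocyte markers, all had a negative log2 fold change in both comparisons with sham, and 2 were called lower in acupuncture against sham. Their sums were 738 and 473 FPKM in acupuncture, 778 and 737 in ICH, and 1169, 952 and 1217 in sham. Microglia markers were higher, with 5 of 6 called in ICH and 5 of 6 in acupuncture, each against sham, and the remaining 1 was called lower in acupuncture. Of 6 endothelial markers 2 were called higher in ICH and 3 in acupuncture, and of 3 tested markers of infiltrating myeloid cells 1 was called higher in ICH and 3 in acupuncture, each against sham. Mitochondrially encoded genes summed to 496 FPKM in ICH replicate 2, against 220 to 310 in the other 6 libraries. Sham replicate 2, the highest library for all 10 immediate early genes, also had the highest sham sum of cortical excitatory markers, at 1314 FPKM against 989 and 956. By sum it was also highest among sham libraries for pan-neuronal markers (973 against 920 and 903 FPKM) and feedback regulators (121 against 79.4 and 84.9 FPKM). It was lowest among them for thalamic, striatal and oligodendrocyte markers. The pan-neuronal markers did not move as one. Rbfox3, Snap25 and Syt1 were highest in sham replicate 2 among sham libraries, while Map2, Tubb3, Stmn2 and Nefl were lowest there. For the astrocyte sum, sham replicate 2 lay between the other sham libraries. The part of tissue composition in the differences of the 10 genes was not tested.

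The genes closest to the 10 across the 7 libraries were ranked by Pearson's r between log2(FPKM + 1) and the mean z-score of the 10, as a description. The 10 themselves lay at r = 0.863 to 0.996, with Fos highest and Junb lowest. Their values are raised because the mean contains each of the 10. Above 0.9 were 29 of the tested genes (0.212%), members such as Fos and Arc included. With 7 libraries, the number that would pass 0.9 by chance was not tested. The 10 closest others were Znrf1 (r = 0.978), Btg2 (0.964), Neu2 (0.961), 1700016P03Rik (0.960), Btbd1 (0.956), 4930447C04Rik (0.946), Tlk2 (0.946), Igsf21 (0.946), Smarcd1 (0.931) and Hs3st2 (0.930). Btg2, an antiproliferative gene that is itself induced early, had 5.85 and 11.2 FPKM in acupuncture, 4.97 and 8.05 in ICH, and 11.7, 19.6 and 10.3 in sham. Znrf1, Btbd1 and Tlk2 varied little, and Znrf1 stayed between 14.1 and 16.6 FPKM. Others varied more, with 4930447C04Rik from 1.09 to 2.97 FPKM and Hs3st2 from 6.24 to 11.1.

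1700016P03Rik was at 1.10 and 3.17 FPKM in acupuncture, listed at 0 and at 2.35 in ICH, and at 4.69, 7.92 and 6.62 in sham. It spans chr11:75172560-75177633 and holds on its strand the microRNAs miR-212 and miR-132, which CREB is known to induce in neurons. Mature microRNAs were not measured here. Their 3p arms (RefSeq, GRCm38.p6) are shown because they share the seed, bases 2 to 8, in capitals.
miR-212-3p: uAACAGUCuccagucacggcca
miR-132-3p: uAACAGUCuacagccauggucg

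Related genes did not all follow the 10. Of 6 other leucine zipper genes 4 were tested. Atf3, induced by cell injury and stress, rose by 1.37 in acupuncture against sham (limma adjusted p = 0.00384), with 2.71 and 3.07 FPKM in acupuncture and 0.534, 0.353 and 0.638 in sham. In ICH against sham none of the 4 was called, with Atf3 at 0.75 (limma adjusted p = 0.0654) and Jun at 0.29 (0.201). Of 7 further EGR, NR4A and KLF factors 1 fell in acupuncture against sham, the nuclear receptor Nr4a3, by 1.03 (limma adjusted p = 0.0177). None was called in ICH against sham, where Klf6 was at 0.26 (limma adjusted p = 0.186) and Klf4 at -0.36 (0.195).

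Among 12 feedback regulators, Sik1, a kinase that restrains CREB coactivators, fell by 0.87 in ICH against sham (limma adjusted p = 0.0236), and no other was called. It had 1.59 and 2.25 FPKM in ICH and 3.59, 5.00 and 4.43 in sham. In acupuncture against sham 1 of the 12 rose, Ier3, by 1.52 (limma adjusted p = 0.00618). Of 13 upstream activators, Mapk3, which encodes the kinase ERK1, rose by 0.52 in ICH against sham (limma adjusted p = 0.0313). Camk4, a nuclear calcium kinase that activates CREB, fell by 1.05 in acupuncture against sham (limma adjusted p = 0.00107). It had 5.99 and 5.62 FPKM in acupuncture, 9.88 and 11.7 in ICH, and 12.9, 13.8 and 12.7 in sham.

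Of 11 effectors of neuronal activity, Arl4d, a small GTPase, fell by 1.66 in ICH against sham (limma adjusted p = 0.00368) and by 0.90 in acupuncture against sham (0.0267). It was at 8.74 and 9.67 FPKM in acupuncture, 5.70 and 4.40 in ICH, and 16.5, 23.4 and 15.2 in sham. The secreted neuropeptide precursor Vgf fell by 0.47 in acupuncture against sham (limma adjusted p = 0.0399). Among 8 genes of wounding and injury, Socs3, an inhibitor of cytokine signalling, rose by 1.50 in ICH against sham (limma adjusted p = 0.00719) and by 2.48 in acupuncture against sham (0.000541). Its levels were 11.8 and 8.36 FPKM in acupuncture, 5.71 and 3.55 in ICH, and 1.12, 0.957 and 0.807 in sham. Myc, a growth regulator, rose by 1.16 in ICH against sham (limma adjusted p = 0.0199).

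A negative log2 fold change in ICH against sham was found for 10 of 12 feedback regulators and 10 of 11 effectors, with medians of -0.37 and -0.27 beside -0.01 over all tested genes. The medians of the other lists were 0.10 for the leucine zipper genes, -0.06 for the EGR, NR4A and KLF factors, 0.16 for upstream activators and 0.05 for injury genes. With all 4 haemorrhage libraries against sham, Atf3, Ier3, Mapk3, Socs3, Myc and Ptgs2 (limma adjusted p between 0.000536 and 0.0494) were higher, and Nr4a3, Sik1, Camk4, Arl4d and Vgf (between 0.00301 and 0.0395) lower. None of the related genes was called in acupuncture against ICH. The smallest p in each list belonged to Atf3 (0.62) and Fosl2 (0.24), Nr4a3 (-0.65) and Klf2 (0.57), Csrnp1 (0.40) and Ier3 (0.68), Camk4 (-0.79) and Mrtfb (-0.42), Arl4d (0.76) and Rgs2 (-0.35), and Socs3 (0.98) and Gadd45g (0.43), with log2 fold changes in brackets. Their limma adjusted p ran from 0.0827 for Camk4 to 0.545 for Fosl2.

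m6A was measured as the authors' log2 of IP over input per peak, with 1 peak list per group and so no replicate spread. It is not known here whether the ICH and acupuncture lists rest on the 2 libraries per group alone. All 10 genes had a peak in each group, as did 94% of tested genes in acupuncture, 94.3% in ICH and 93.6% in sham. They carried 24 peaks in acupuncture, 27 in ICH and 26 in sham. At least 1 bp was shared with an ICH peak by 22 of 24 acupuncture peaks (91.7%, against 82.3% of all listed peaks), and with an acupuncture peak by 21 of 27 ICH peaks (77.8%, against 74.3%). A sham peak was overlapped by 25 of 27 ICH peaks (92.6%, against 70.7%), and an ICH peak by 22 of 26 sham peaks (84.6%, against 79.9%). Between acupuncture and sham the shares were 23 of 24 acupuncture peaks (95.8%, against 74.7%) and 23 of 26 sham peaks (88.5%, against 76.3%). With at least 0.5 of each peak covered, the shares of the 10 genes' peaks were 59.3% to 79.2%, against 46.6% to 57.4% of all listed peaks. The authors annotated 14 of the acupuncture peaks (58.3%), 15 of the ICH peaks (55.6%) and 14 of the sham peaks (53.8%) as 3′UTR, near the 54.7%, 52.3% and 54.5% of all listed peaks.

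**Figure D4:**
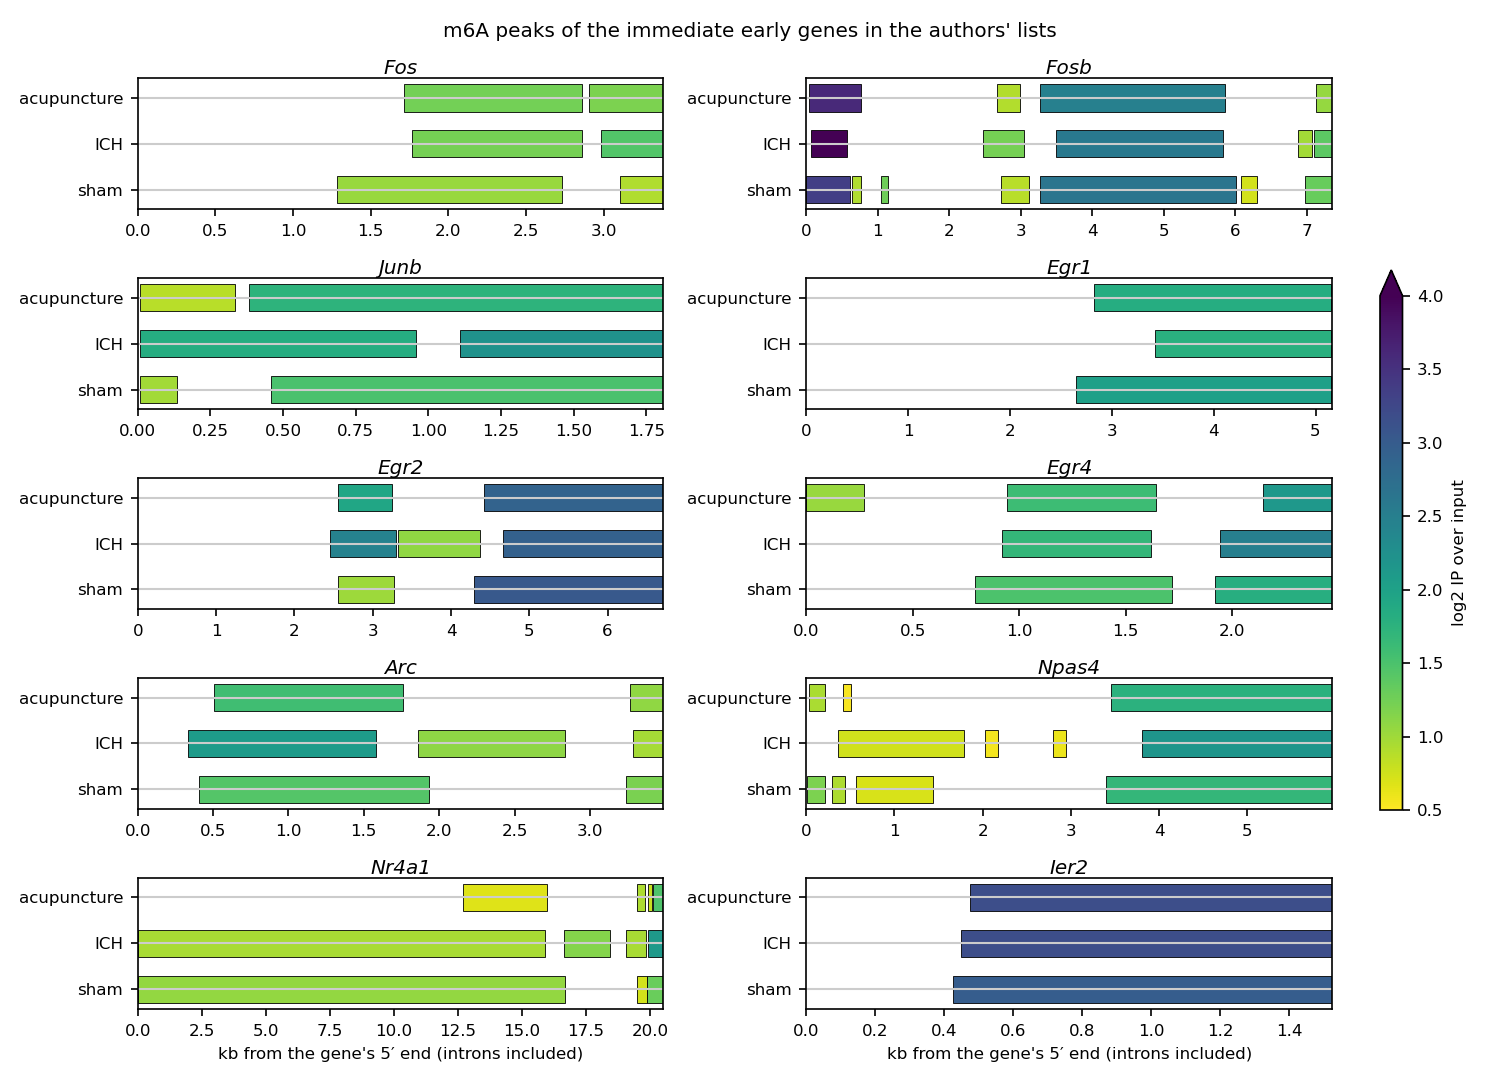
Peaks of the authors' lists along each gene, in kb from its 5′ end with introns included, for acupuncture, ICH and sham from top to bottom, coloured by log2 IP over input. A peak reaches or nearly reaches the 3′ end of every gene in every group, and Fosb has its strongest peak at the 5′ end.

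The strongest peak of a gene was annotated as 3′UTR in 9 of the 10 genes in each group. This is 1 label per peak, and a wide peak can reach beyond the 3′UTR. The Junb peak in acupuncture, for example, covers 1425 of the 1809 bases of the gene. Fosb was the exception, with its strongest peak in the 5′UTR at 3.59 in acupuncture, 6.02 in ICH and 3.35 in sham (log2 IP over input). The sham peak spans chr7:19309434-19310051 on the minus strand (GRCm38). Ier2 had 3.18 in acupuncture, 3.18 in ICH and 2.98 in sham, and Egr2 had 2.90 in acupuncture, 2.93 in ICH and 3.04 in sham. These 2 genes were the next strongest in every group, with Ier2 above Egr2 in acupuncture and ICH and below it in sham. A peak of at least 2 was held by 4 of the 10 genes in acupuncture, 8 in ICH and 4 in sham, against 30.0%, 44.8% and 29.6% of tested genes. Fos had the weakest of these peaks, at 1.25 in acupuncture, 1.45 in ICH and 1.05 in sham. The median over the 10 genes was 1.80 in acupuncture, 2.21 in ICH and 1.75 in sham, beside 1.65, 1.97 and 1.56 for all tested genes with a peak, in the same order.

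**Figure D5:**
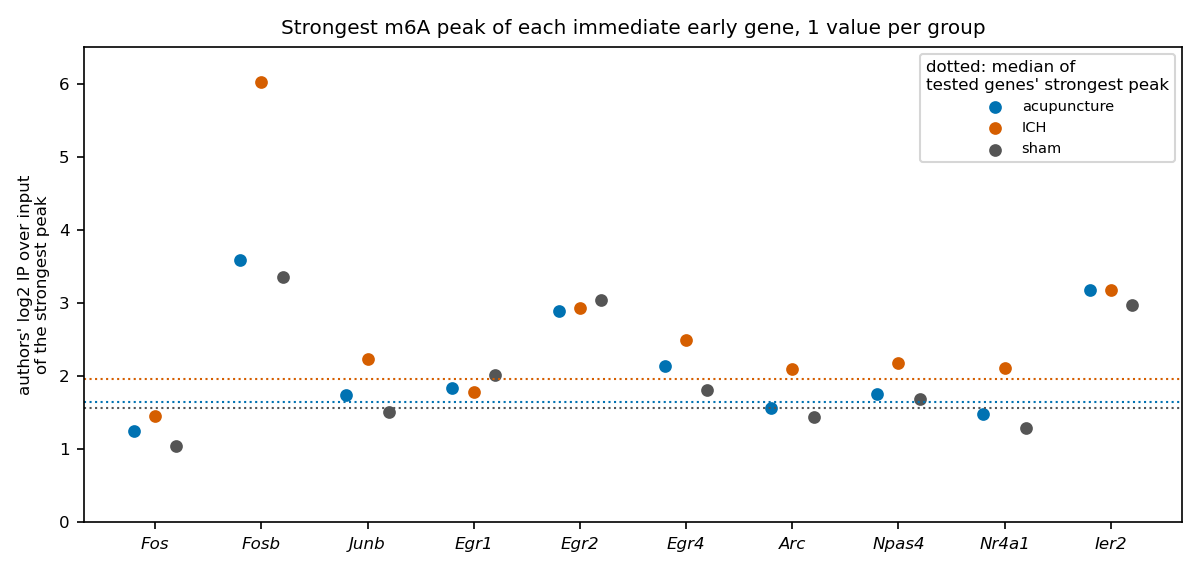
Authors' log2 IP over input of the strongest peak of each gene, 1 value per group, for acupuncture, ICH and sham; dotted lines are the medians over tested genes. Fosb in ICH is at 6.02, and in Egr1 and Egr2 the sham value is the highest of the 3 groups.

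In ICH against sham the authors' deposited table lists 16 peaks of 8 of the genes, all but Ier2 and Npas4. At the authors' adjusted p under 0.05, 10 of the 16 (62.5%) were higher in ICH, against 69.8% of all listed peaks, and 3 (18.8%) were lower, against 18%. These shares are near the background. Per the authors' deposited table, the 3′UTR peak of Egr4 had a log2 IP over input of 2.62 in ICH and 1.86 in sham, that of Nr4a1 2.03 and 1.30, and that of Junb 2.16 and 1.53. In the authors' deposited table the 5′UTR peak of Fosb differed most, at 5.97 in ICH and 3.33 in sham (the authors' adjusted p = 0.00174). The input level of Fosb in ICH was low, at 1.05 and 1.69 FPKM.

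Egr1 ran the other way. Its 3′UTR peak stood at 1.41 in ICH and 2.08 in sham, a difference of -0.67 in the authors' deposited table (the authors' adjusted p = 1.23e-204). Arc and Nr4a1 had peaks of both directions in the authors' deposited table: in Arc the peak at the 3′ end was at 0.88 in ICH and 1.30 in sham, and a larger one upstream at 1.86 in ICH and 1.39 in sham. For Nr4a1 the authors' deposited table has a lower 5′UTR peak as well, at 0.32 in ICH and 1.01 in sham.

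In acupuncture against ICH the authors' deposited table lists 14 peaks of 8 of the genes, all but Egr2 and Ier2. Of these 9 (64.3%) were lower in acupuncture, against 62.2% of all listed peaks, and 2 (14.3%) were higher, against 11.5%. The Egr4 3′UTR peak was at 1.94 in acupuncture and 2.63 in ICH, and the Fosb 5′UTR peak at 3.57 in acupuncture and 5.97 in ICH, per the authors' deposited table. Egr1 was again opposite, at 1.94 in acupuncture and 1.63 in ICH in the authors' deposited table. Arc again had peaks of both directions in the authors' deposited table. Its peak at the 3′ end was at 1.15 in acupuncture and 0.93 in ICH, and a larger one upstream at 1.56 in acupuncture and 1.97 in ICH. Nr4a1 had 4 lower peaks in the authors' deposited table, the one in the 3′UTR at 1.41 in acupuncture and 2.07 in ICH.

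In acupuncture against sham the authors' deposited table lists 7 peaks of 5 of the genes. Of these 3 (42.9%) were higher, against 37.6% of all listed peaks, namely 2 of Fos and 1 of Junb. The other 4 (57.1%) were lower, in Arc, Egr1 and Nr4a1, against 26.1%. Per the authors' deposited table the Egr1 3′UTR peak was at 1.76 in acupuncture and 2.01 in sham. The 3 comparisons share groups, and the p-values are the authors' own, with replicates not separated, so the spread between libraries behind them was not tested. The input levels of Egr4, Fos, Nr4a1, Egr2, Junb, Arc and Npas4 were also lower in ICH than in sham without overlap. Fosb had a low input in ICH, with groups that overlapped. The part of input level in the ratio was not tested.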

How the data were processed

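Per the labels' protocols, poly(A) RNA of brain tissue was fragmented, part of it was pulled down with an m6A antibody, and strand-marked (dUTP) libraries were sequenced. Tools named in the submitters' processing notes, with no version and no role, are HISAT2, fastp, StringTie, HOMER and edgeR. The notes also name a human build, while the files hold mouse identifiers. The peak caller and the counting strand are not given in the sources used here.

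FPKM per gene in the input libraries was computed by the authors and is used as deposited. The FPKM table has 2 value columns, headed as a further ICH and a further EA replicate, that match no sample and were not used. Whether those samples entered the authors' peak lists and differential tables is not known here. Its columns headed control and EA were taken as sham and acupuncture by number and elimination. The peak lists hold the authors' log2 of IP over input per peak for a whole group, and the differential tables the deposited log2 value of each group and their difference. The p-value and adjusted p-value in both are the authors' own, and listed peaks have a p under 0.05 or none. Coordinates are GRCm38.

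Genes averaging 1 FPKM or more in the 7 input libraries were fitted on log2(FPKM + 1) with limma 3.58.1 in R 4.3.3, with 1 mean per group, moderated variance and a mean-variance trend. Tests were two-sided, and calls needed an adjusted p (Benjamini-Hochberg, over all tested genes) under 0.05. The fit was tested on simulated data. Tables and figures used Python 3.11.15, pandas 2.3.3, numpy 2.4.6 and matplotlib 3.10.9. None of the 10 genes overlaps another gene of the table. The genes and lists were chosen with earlier results of these data known. All 10 genes are named in each comparison, related genes where called (otherwise the 2 with the smallest p), and the 10 closest genes by r. Mkl1, Mkl2, Cyr61 and Ctgf were looked up under their current symbols Mrtfa, Mrtfb, Ccn1 and Ccn2.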

Additional observations from a re-analysis of the deposited data

How the results depend on the processing

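The number of the 10 genes called lower depended on the processing, while none was called higher in any comparison under any alternative run. In ICH against sham, 1 gene was lower, and 0 without the filter on low values. In acupuncture against sham, 1 was lower, and 0 with a pseudocount of 0.1 or 0.5, without the filter, with a mean of at least 5 FPKM or without the mean-variance trend, and 2 with only the libraries compared. With all 4 haemorrhage libraries against sham, 2 were lower, and 1 with a pseudocount of 0.1, without the filter or at 5 FPKM. At 5 FPKM only 7 of the 10 genes were tested, and Egr2 was not among them. Replicate numbers did not pair the libraries (correlations of deviations from group means -0.01 to 0.09). With the replicate block 5 genes were lower in ICH against sham, 5 in acupuncture against sham and 6 in all haemorrhage libraries against sham, beside 0.19%, 0.754% and 0.622% of all tested genes. In all 10 genes replicate 1 lay below replicate 2 in each group, so a block on these numbers took up their spread within groups. No conclusion is drawn from the counts with the block. Leaving out each library in turn gave 0 to 2, 0 to 2 and 0 to 6, beside 0.139% to 19.9%, 0.973% to 8.6% and 0.578% to 14.1% of all tested genes, with the highest share without ICH replicate 1.

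All sign changes concerned values that were not called: 16 of 157 in acupuncture against ICH, 1 of 157 in ICH against sham and 3 of 157 in acupuncture against sham. Egr1 in acupuncture against ICH was -0.0453 with quantile normalization and -0.0034 with median scaling. With 1 library left out, the values in acupuncture against ICH ran from -0.26 to 1.02 for Fos, -0.28 to 0.75 for Fosb, -0.95 to 1.04 for Egr1, -0.36 to 0.82 for Egr2, -0.26 to 1.44 for Arc, -0.55 to 1.14 for Npas4, -0.28 to 0.95 for Nr4a1 and -0.0547 to 0.71 for Ier2. In ICH against sham Egr1 ran from -1.76 to 0.23. In acupuncture against sham Fosb ran from -0.81 to 0.22 and Ier2 from -0.45 to 0.31.

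With peaks of a log2 IP over input of at least 2 alone, 4 of the 10 genes had a peak in acupuncture, 8 in ICH and 4 in sham, against 30.0%, 44.8% and 29.6% of tested genes. With a difference of at least 1 added to the authors' adjusted p, genes with a differential peak in acupuncture against ICH numbered 0 higher and 2 lower, in ICH against sham 2 higher and 0 lower, and in acupuncture against sham 0 higher and 0 lower. The causes of these changes were not tested. A library left out can leave a group of 1, which was then assumed to vary like the others. FPKM leaves the depth unknown.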
